A study of Mus musculus with 4 samples.

Results

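The genes described here encode ion channels, or carry symbols of ion channel families, in peritoneal macrophages of mice that did or did not receive an electric current. They were taken by symbol alone, with no use of expression values, as every listed gene named for a potassium (*Kcn*), voltage-gated calcium (*Cacn*) or sodium (*Scn*) channel, a TRP channel (*Trpc*, *Trpm*, *Trpv*), a CLC chloride channel (*Clcn*), a P2X receptor (*P2rx*), ORAI, STIM, Piezo or the proton channel *Hvcn1*. This gave 107 of the 15298 genes of the RNA-seq. Of these, 3 were set apart as encoding no channel subunit. *Kcnq1ot1* is a noncoding RNA antisense to *Kcnq1*, *Kcnrg* is a regulator of potassium channels, and *Trpc4ap* is a partner protein of a TRP channel. The STIM proteins are calcium sensors rather than pores, but were kept with store-operated calcium entry.

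Ion channels are membrane proteins that let ions pass when a stimulus opens them. The pores of voltage-gated calcium, sodium and potassium channels carry charged segments that move when the voltage across the membrane changes, whereas Piezo channels open upon stretch, P2X receptors upon extracellular ATP, and ORAI pores when STIM proteins sense that calcium stores are empty. In macrophages, store-operated calcium entry and ATP-gated currents follow receptor engagement and tissue damage, and the proton channel supports the oxidative burst.

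Total RNA was sequenced after depletion of ribosomal RNA from CD11b+ F4/80+ Ly6G- peritoneal cells isolated by flow cytometry, with 1 library for each of 4 conditions. The mice were 6-week-old female BALB/c mice, and no allele or transgene was named. Microcurrent stimulation (MCS) was a bidirectional pulsed current of 300 µA at 400 Hz, given for 15 min at ZT2 through pads on the abdomen and back of mice under isoflurane, and control mice were handled alike without current. Macrophages were taken at ZT2, right after the end of MCS, or at ZT14, 12 h later, where ZT is the time in hours since lights on.

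The 4 libraries held between 8365590 and 9953243 reads over the listed genes, and 1 read equaled between 0.102 and 0.116 CPM (read counts scaled to a fixed total per library). No replicate stands behind any value and neither the labels nor the methods give the number of mice per library, so no difference between conditions could be tested against the spread between mice. Markers of macrophages were abundant, with a sum over 6 genes of 7062 to 8374 CPM. The libraries also held RNA of B cell and mast cell markers, with all 5 listed genes of each above 0 in every library and sums of 901 to 1279 CPM and 687 to 1633 CPM. In bulk RNA, fewer cells of a type and less RNA per cell cannot be told apart.

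Values over the 4 libraries are given throughout in the order control at ZT2, control at ZT14, MCS at ZT2 and MCS at ZT14. A gene was called well measured when its mean over the 4 libraries was at least 5 CPM. Of the 107 genes, 45 were well measured (42.1%), against 10180 of all 15298 genes (66.5%). A further 18 had means between 1 and 5 CPM and 44 lay under 1 CPM, and 18 had no read in at least 1 library, where up to 3 reads, or 0.307 to 0.348 CPM, could have been missed. The median level of the channel genes was 1.80 CPM and that of all genes 14.4 CPM.

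The repertoire of these macrophages was uneven between families. All 5 genes of store-operated calcium entry were well measured, as were 5 of 6 CLC genes, 3 of 4 P2X genes, 4 of 9 pores of voltage-gated calcium channels, 5 of 13 TRP genes and 5 of 17 pores of voltage-gated potassium channels. Among 8 inward rectifiers only *Kcnj2* was well measured, and of the 2 sodium channel pores listed only *Scn4a*. Levels between genes were compared after division by the length of the longest annotated transcript. On that scale the highest gene was *Kcnab2*, a cytoplasmic beta subunit of voltage-gated potassium channels, with a mean of 53.6 CPM per kilobase. Others among the 10 highest were *Trpc4ap* at 32.4 CPM per kilobase, the stretch-gated pore *Piezo1* at 26.5, the ATP-gated pore *P2rx4* at 23.6, the potassium leak channel *Kcnk13* at 22.8, *Orai2* at 21.8, *Orai3* at 20.9, *Trpm7* at 19.5 and the calcium channel pore *Cacna1e* at 19.0 CPM per kilobase. *Kcnq1ot1* had by far the most reads of the 107, a mean of 1067 CPM, but its annotated transcript of 93.1 kb placed it at 11.5 CPM per kilobase.

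**Figure D1:**
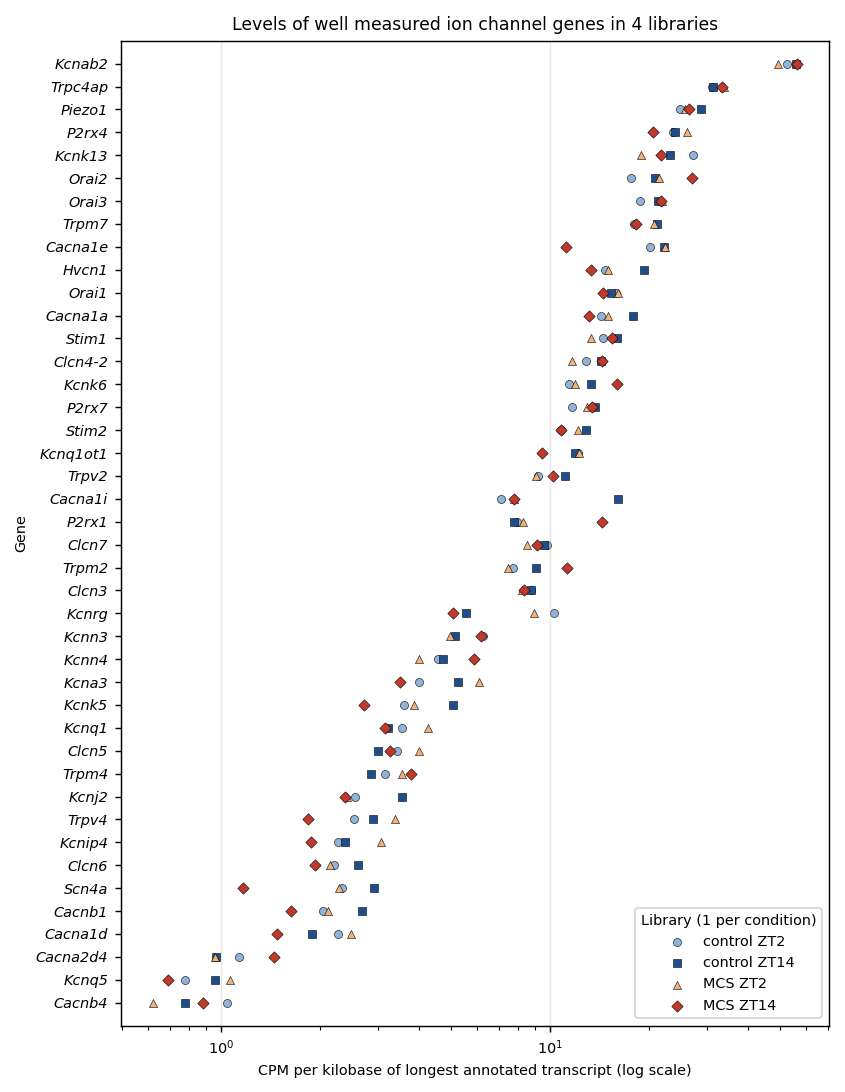
Level of 42 of the 45 well measured ion channel genes in CPM per kilobase of the longest annotated transcript (log scale), with 1 point per library. The control library at ZT14 stands apart for *Cacna1i*, and the MCS library at ZT14 stands apart for *Cacna1e*, *Scn4a* and *P2rx1*.

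The comparison of MCS with control asked which channel genes differed right after the current and 12 h later. Each difference is a log2 ratio of the CPM of 2 libraries after adding 0.1 CPM, with a 95% interval that covers counting error only, and folds are on the same scale. At ZT14, more well measured channel genes were lower than higher in the MCS library. The counting interval lay below no change in 18 of 45 genes (40%) and above it in 9 (20%), where 21.3% and 20.9% of all 10180 well measured genes did so. The 45 genes had a median log2 ratio of -0.12, against 0.00 for all well measured genes, and the median absolute log2 ratios were 0.32 and 0.19. Among the 18 lower genes were all 4 well measured calcium channel pores, the sodium channel pore *Scn4a*, the potassium channels *Kcnk5*, *Kcnj2* and *Kcna3* and the proton channel *Hvcn1*. The 9 higher genes included the ATP-gated *P2rx1*, *Orai2*, *Trpm2* and *Kcnn4*.

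A difference of more than 2-fold with a log2 mean of the 2 libraries above 0, the criterion of the study's methods, was rarer. At ZT14 it was met by 4 of 59 channel genes that were lower after MCS, *Cacna1i*, *Scn4a*, *Kcnj5* and *Scn3b*, where 1.57% of all genes met it. In the higher direction it was met by 1 of 59, *Kcnj13*, against 1.84% of all genes. When the intervals of the 45 well measured genes were widened by the dispersion that a count model drew from the 4 libraries, 5 still lay away from no change, beside 5.49% of all well measured genes. They were *Cacna1e*, *Cacna1i*, *Scn4a* and *Kcnk5* in the lower direction and *P2rx1* in the higher direction. The dispersion was common to all genes and came from the spread left by an additive fit of time and MCS. It did not measure the spread between mice.

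Right after the current, at ZT2, the differences of the 45 genes were smaller, with a median absolute log2 ratio of 0.14 (0.13 over all well measured genes). The counting interval lay above no change in 6 genes (13.3%, against 12.6% of all well measured genes) and below it in 4 (8.89%, against 12.8%). The 6 higher genes were *Kcna3*, *Orai2*, *Orai3*, *Trpm7*, *Cacna1e* and *Trpc4ap*, with log2 ratios between 0.12 and 0.60, and the lower genes included *Cacnb4*, *Kcnk13* and *Kcnn3*, with log2 ratios between -0.73 and -0.34. None of the 45 kept an interval away from no change after widening by the dispersion, where 1.39% of all well measured genes did. More than 2-fold differences were met by 2 of 64 channel genes in the higher direction (1.44% of all genes), *Kcnj5* and *Kcnc1*, and by 3 of 64 in the lower direction (0.769%), among them *Cacna1b* and *Kcng1*. All 5 had few reads, for example 6 and 24 reads for *Kcnj5* in control and MCS.

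**Figure D2:**
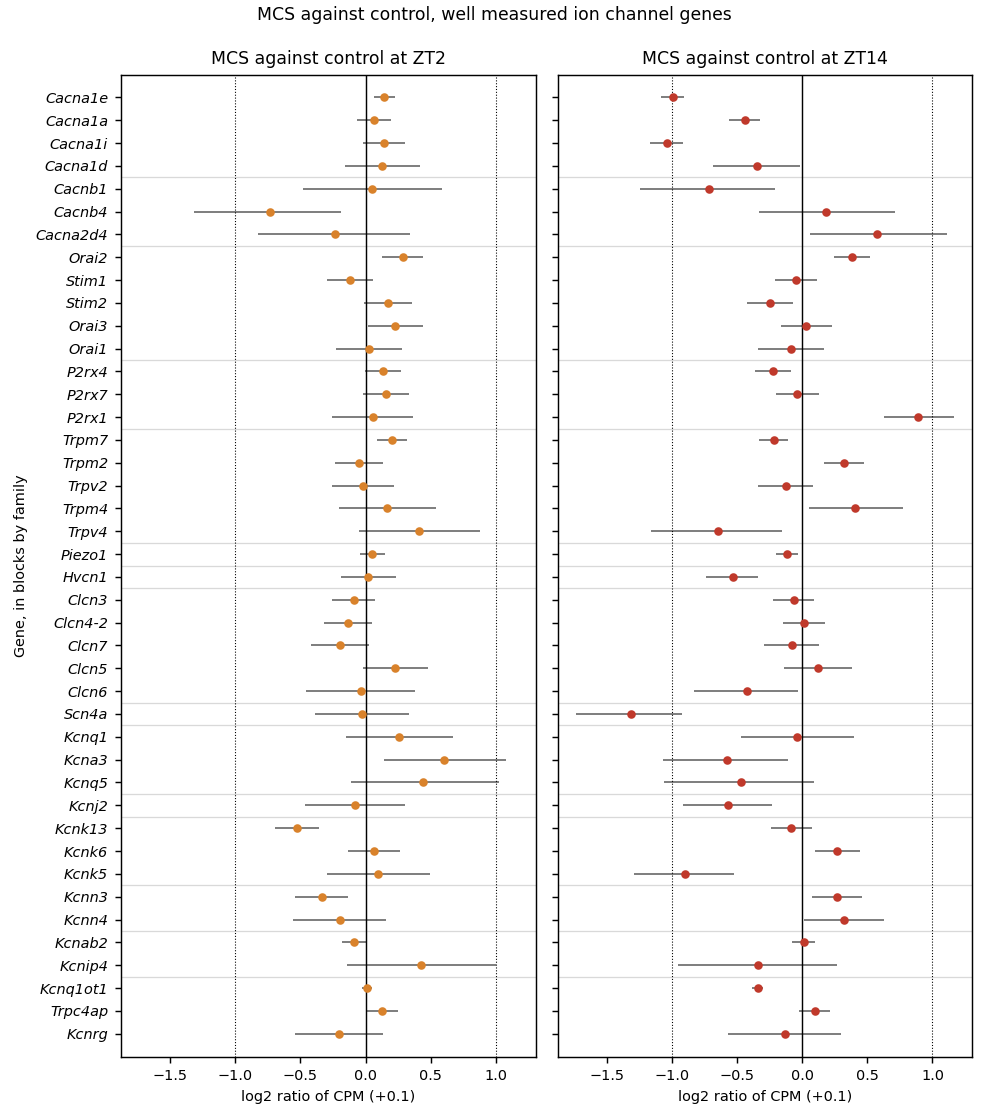
Log2 ratio of MCS to control in CPM (after adding 0.1) for 42 of the 45 well measured ion channel genes at ZT2 (left) and at ZT14 (right), in blocks by family, with bars for the 95% counting interval and dotted lines at a 2-fold difference. At ZT2 no gene passes a dotted line, and at ZT14 *Scn4a* and *Cacna1i* lie past the lower line, *Cacna1e* lies on it, and *P2rx1* is highest at 0.89.

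The effect of MCS was also tested with edgeR's quasi-likelihood test on recovered read counts, which used all 4 libraries and assumed the same effect at both times. None of the 61 channel genes tested had an adjusted p below 0.05, and 24 of 12404 genes did (0.193%). At an unadjusted p below 0.05 the edgeR test listed 5 of the 61, *Scn4a*, *Cacna1i*, *P2rx1*, *Cacna1e* and *Orai2*, beside 304 of 12404 genes. DESeq2 called none of the 61 at either threshold. Of all 12404 genes it called 5 at the adjusted and 43 at the unadjusted threshold. This fit had 1 residual degree of freedom, and a difference at 1 time only is averaged with the other time.

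Voltage-gated calcium channels were represented by 9 pore genes, whose summed level was 513, 654, 557 and 366 CPM over the 4 libraries. The sum in the MCS library at ZT14 was the lowest, and its log2 ratio to control was -0.84 at ZT14 and 0.12 at ZT2. *Cacna1e*, the pore of R-type channels, lies on chromosome 1 at chr1:154390731-154884501 (GRCm38, minus strand) and spans 494 kb. It was at 301, 332, 333 and 166 CPM. The first 3 libraries lay between 301 and 333 CPM and MCS at ZT14 stood alone below them, at 0.501 of the control level (log2 ratio -0.997, 95% interval -1.09 to -0.91), just short of the 2-fold criterion. *Cacna1a*, the pore of P/Q-type channels (chr8:84388440-84640246, plus strand), was at 114, 142, 119 and 104 CPM. It was also lowest in MCS at ZT14, where MCS differed from control by -0.44 on the log2 scale (95% interval -0.56 to -0.32), and highest in control at ZT14.

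*Cacna1i*, a pore of T-type channels (chr15:80287238-80398279, plus strand), followed another pattern, with 69.2, 157, 76.2 and 76.3 CPM. Here the control library at ZT14 stood alone above the other 3, which lay between 69.2 and 76.3 CPM. At ZT14 MCS stood to control at a log2 ratio of -1.04 (95% interval -1.17 to -0.91), and its ratio of ZT2 to ZT14 was -1.18 in control (95% interval -1.32 to -1.04) and -0.00 in MCS (95% interval -0.15 to 0.15). Both large ratios rest on the same control library. *Cacna1d*, a pore of L-type channels, was at 21.9, 18.2, 24.0 and 14.3 CPM, and its interval at ZT14 reached from -0.68 to -0.02. It overlaps *Dcp1a* on the opposite strand, and although the libraries were directional, the strand setting of the counting was not stated, so reads of the pair cannot be told apart. Such an overlap, in each case with a gene on the opposite strand, was found for 12 of the 55 genes that were well measured or passed 2-fold, and *Cacna1e*, *Cacna1a* and *Cacna1i* were not among them. Of the 9 pore genes, 4 lay under 1 CPM.

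The auxiliary subunits, which set the trafficking and gating of the pores, were at lower levels. *Cacnb1* was at 6.93, 9.12, 7.19 and 5.52 CPM and was lower after MCS at ZT14 (log2 ratio -0.71, 95% interval -1.25 to -0.21). *Cacnb4* was at 8.55, 6.37, 5.10 and 7.26 CPM, lower after MCS at ZT2 (log2 ratio -0.73, 95% interval -1.32 to -0.19) and not at ZT14 (0.19, -0.33 to 0.71). *Cacna2d4* was at 6.58, 5.60, 5.57 and 8.39 CPM, with a log2 ratio at ZT14 of 0.57 (95% interval 0.06 to 1.12). The 3 subunits thus had ratios of different sign at ZT14, and the other 6 lay under 1 CPM.

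At ZT14 the summed B cell markers were at 1279 CPM in control and 901 in MCS, and mast cell markers at 864 and 687 CPM. Markers of large peritoneal macrophages summed to 5182 and 7148 CPM in the same libraries. Of these, *Alox15* was at 3712 and 5532 CPM, *Selp* at 714 and 764, *Icam2* at 247 and 323, *Gata6* at 89.0 and 117, and *Timd4* at 421 and 412. At ZT2 the sums in control and MCS were 1044 and 1004 CPM for B cells, 1327 and 1633 for mast cells and 5701 and 5069 for large peritoneal macrophages. Within the last list *Gata6* went the other way, at 69.1 and 80.9 CPM, and the other markers were lower in MCS. Sums of other cell types were lower, and some differed by more between the libraries compared. Red blood cell markers were at 2.54, 1.10, 23.8 and 72.4 CPM, neutrophil markers at 15.01, 14.8, 67.9 and 4.81 CPM, and the only eosinophil marker listed, *Siglecf*, at 1.27, 0.659, 5.80 and 14.1 CPM. The part of these cells in the channel ratios was not tested.

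**Figure D3:**
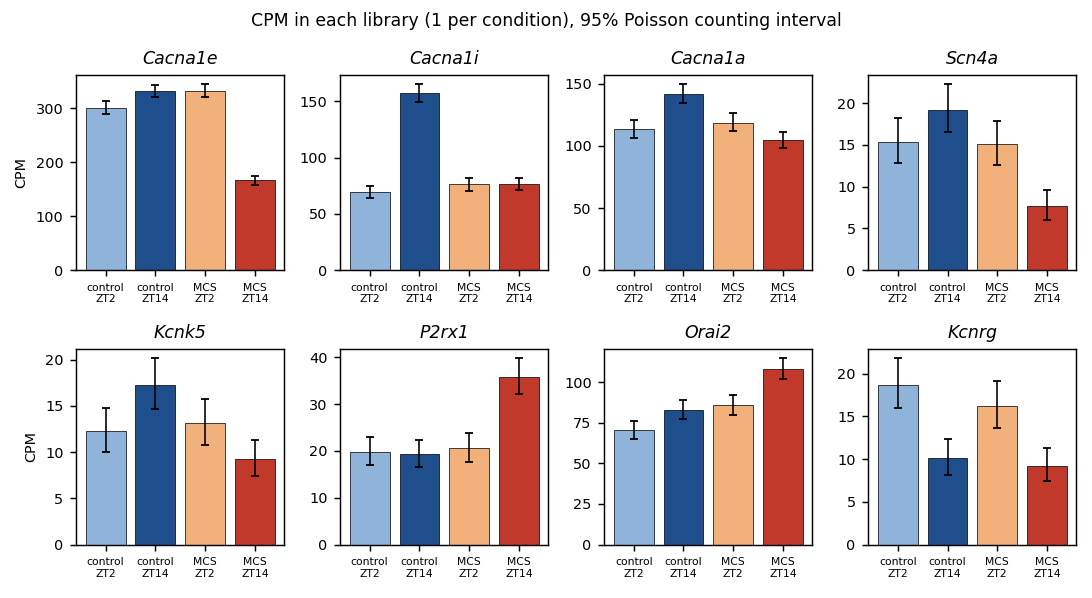
CPM of 8 ion channel genes in the 4 libraries (bars, 1 library per condition) with the 95% Poisson counting interval, chosen after their values were seen. *Cacna1e*, *Scn4a* and *Kcnk5* are lowest in MCS at ZT14, *Cacna1i* is highest in control at ZT14, *P2rx1* and *Orai2* are highest in MCS at ZT14, and *Kcnrg* is higher at ZT2 than at ZT14 in both groups.

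Since the study concerned the circadian clock, the 250 bases before the start of transcription were searched for the E-box CACGTG, which CLOCK and ARNTL bind, and for AGGTCA, the core of the element that ROR and REV-ERB proteins bind, on both strands. The E-box was present in 7 of the 37 well measured channel genes with a sequence (18.9%), *Trpm7*, *Orai2*, *Clcn4-2*, *Clcn7*, *Kcnn4*, *Kcnj2* and *Clcn6*, and in 10.4% of 7822 well measured genes. AGGTCA was present in 5 of the 37 (13.5%), *P2rx4*, *Orai2*, *P2rx7*, *Clcn7* and *Kcnip4*, and in 12.6% of the well measured genes. Over all 32851 windows the shares were 6.02% and 14.0%. A gene counted when any of its windows matched, and genes differ in their number of windows, with 52 for the 37 channel genes. For 41 of these 52 the start was found in an annotated transcript of the gene in the sense direction only. A match describes letters only. The sequences of *Cacna1e* and *Cacna1i*, at the lower end of the ratios at ZT14, and of *Orai2*, which was higher after MCS at both times, are shown from RefSeq (GRCm38.p6) with the E-box in capitals.
*Cacna1e*, chr1:154725921-154726170 (- strand): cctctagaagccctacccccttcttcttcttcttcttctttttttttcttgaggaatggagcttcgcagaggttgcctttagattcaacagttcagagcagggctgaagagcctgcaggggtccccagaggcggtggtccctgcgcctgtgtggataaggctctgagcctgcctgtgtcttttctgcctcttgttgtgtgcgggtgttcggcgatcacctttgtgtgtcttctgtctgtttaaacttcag
*Cacna1i*, chr15:80286988-80287237 (+ strand): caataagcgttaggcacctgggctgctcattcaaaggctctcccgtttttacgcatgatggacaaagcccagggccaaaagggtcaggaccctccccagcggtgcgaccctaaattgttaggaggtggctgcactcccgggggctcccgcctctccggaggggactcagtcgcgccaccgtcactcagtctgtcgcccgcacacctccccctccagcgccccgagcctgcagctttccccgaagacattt
*Orai2*, chr5:136170657-136170906 (- strand): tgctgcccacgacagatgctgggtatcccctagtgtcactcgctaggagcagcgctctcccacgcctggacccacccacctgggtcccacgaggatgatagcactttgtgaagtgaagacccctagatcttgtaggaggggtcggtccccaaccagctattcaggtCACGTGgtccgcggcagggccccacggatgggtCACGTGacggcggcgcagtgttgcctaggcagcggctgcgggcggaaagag
The *Orai2* window holds 2 E-boxes, the first of which shares letters with its AGGTCA, and the windows of *Cacna1e* and *Cacna1i* hold none. Their GC contents were 63.6%, 52.0% and 62.4%, in that order. The *Cacna1e* window lies inside the annotated span of the gene, before 1 of its transcripts.

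All 5 genes of store-operated calcium entry together were at 257, 290, 282 and 302 CPM. *Orai2*, 1 of 3 ORAI pores, was at 70.4, 82.9, 85.8 and 108 CPM. It was higher in MCS than in control at ZT2 (log2 ratio 0.28, 95% interval 0.13 to 0.44) and at ZT14 (0.38, 0.25 to 0.52), and at ZT14 than at ZT2 in both groups. *Orai3* was at 40.1, 45.6, 47.0 and 46.5 CPM, lowest in control at ZT2. *Orai1*, the main pore of store-operated entry in lymphocytes, varied between 27.1 and 30.3 CPM, and its intervals included no change in all 4 comparisons. The calcium sensor *Stim1* was at 63.3, 69.5, 58.2 and 67.2 CPM with both MCS intervals including no change, and *Stim2* was at 53.4, 63.3, 60.2 and 53.3 CPM, with a log2 ratio of -0.25 at ZT14 (95% interval -0.42 to -0.07).

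ATP-gated P2X receptors kept a nearly constant sum of 171, 182, 187 and 183 CPM while their members differed. *P2rx1* (chr11:72999103-73015200, plus strand) was at 19.7, 19.3, 20.5 and 35.9 CPM. The first 3 libraries were alike and MCS at ZT14 was 1.85 times the control (log2 ratio 0.89, 95% interval 0.63 to 1.16), the highest ratio of the 45 genes at ZT14. Beside it on the same strand lie *Camkk1*, 3808 bases away, at 3.81, 4.83, 2.44 and 7.16 CPM, and *Atp2a3*, 6059 bases away, at 532, 627, 479 and 519 CPM. *P2rx4* was at 92.4, 93.6, 101 and 80.1 CPM, lower after MCS at ZT14 (log2 ratio -0.22, 95% interval -0.37 to -0.08). *P2rx7*, through which extracellular ATP activates the inflammasome, was at 57.6, 67.8, 64.2 and 66.1 CPM and its MCS intervals included no change at both times. The remaining P2X gene lay under 1 CPM.

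Of the TRP channels, nonselective cation channels with varied triggers, 5 were well measured, and they had ratios of both signs. *Trpm7*, a channel fused to a kinase that passes magnesium and calcium, was at 128, 151, 148 and 129 CPM, higher after MCS at ZT2 (log2 ratio 0.20, 95% interval 0.09 to 0.32) and lower at ZT14 (-0.22, -0.33 to -0.11). *Trpm2*, which ADP-ribose and oxidative stress open, was at 56.0, 65.9, 54.1 and 82.2 CPM, highest in MCS at ZT14 (log2 ratio 0.32, 95% interval 0.16 to 0.47). The calcium-activated *Trpm4* was at 13.6, 12.3, 15.3 and 16.4 CPM, with a log2 ratio at ZT14 of 0.41 (95% interval 0.05 to 0.77). It overlaps the pseudogene *Rpl14-ps1* on the opposite strand, which was at 1.15, 1.21, 1.62 and 4.19 CPM. *Trpv4*, opened by swelling and warmth, was at 8.20, 9.34, 10.9 and 5.93 CPM, with a log2 ratio at ZT14 of -0.65 (95% interval -1.16 to -0.16). *Trpv2* was at 33.7 to 40.9 CPM, and its MCS intervals included no change. The other 8 TRP genes lay under 1 CPM.

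*Piezo1*, the stretch-gated channel of many tissues, was at 204, 237, 211 and 218 CPM. It was lowest in control at ZT2, and its log2 ratio to control was 0.05 at ZT2 (95% interval -0.04 to 0.15) and -0.12 at ZT14 (95% interval -0.21 to -0.03). Its relative *Piezo2* had 13, 7, 19 and 1 reads.

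The proton channel *Hvcn1* was at 41.3, 54.2, 42.0 and 37.3 CPM. Control at ZT14 was the highest and MCS at ZT14 the lowest, with a log2 ratio of -0.54 (95% interval -0.74 to -0.34), while the ratio at ZT2 was 0.02 (-0.19 to 0.24). It overlaps *Tctn1* on the opposite strand, which was at 19.9, 23.9, 22.3 and 16.4 CPM. The CLC genes, many of them chloride-proton exchangers of endosomes and lysosomes, varied less. The summed level of the 6 was 214, 218, 203 and 212 CPM. *Clcn3*, *Clcn4-2*, *Clcn5* and *Clcn7* had intervals that included no change for MCS at both times, and *Clcn6* had a log2 ratio at ZT14 of -0.43 (95% interval -0.83 to -0.04).

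Of the sodium channel genes, *Scn4a* is known as the pore of skeletal muscle channels (chr11:106318592-106353288, minus strand). It was at 15.4, 19.2, 15.1 and 7.67 CPM. MCS at ZT14 was the lowest library, at 0.402 of control (log2 ratio -1.31, 95% interval -1.74 to -0.93), the lowest ratio of the 45 genes. It lies 3830 bases from *Cd79b*, a B cell gene on the same strand that was at 213, 286, 213 and 205 CPM, and the part of reads or cells of *Cd79b* in the *Scn4a* ratio was not tested. *Scn3b* had 16, 27, 16 and 9 reads, and its log2 ratio at ZT14 was -1.59 (95% interval -2.96 to -0.56).

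Potassium channels, which set the resting voltage of the cell, made up the largest group of genes, and most of them were low. The voltage-gated *Kcna3*, known from lymphocytes and macrophages, was at 7.62, 9.996, 11.6 and 6.65 CPM, higher after MCS at ZT2 (log2 ratio 0.60, 95% interval 0.14 to 1.08) and lower at ZT14 (-0.58, -1.07 to -0.11). The noncoding *AI504432*, 1434 bases away on the same strand, was at 9.01, 12.2, 12.2 and 8.59 CPM. Its log2 ratios of MCS to control were 0.43 at ZT2 and -0.50 at ZT14. The part of its reads in the *Kcna3* ratios was not tested. *Kcnq1* and *Kcnq5* had MCS intervals that included no change at both times. The inward rectifier *Kcnj2*, which holds the voltage near the potassium equilibrium, was at 13.9, 19.3, 13.1 and 13.0 CPM, highest in control at ZT14, and its log2 ratio of MCS to control there was -0.57 (95% interval -0.91 to -0.24).

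The potassium leak channels differed from each other. *Kcnk13*, a leak channel of macrophages and microglia, was at 83.7, 71.3, 58.1 and 67.2 CPM, lowest in MCS at ZT2 (log2 ratio -0.53, 95% interval -0.69 to -0.36). *Kcnk6*, which serves potassium efflux in inflammasome activation, was at 46.5, 54.3, 48.7 and 65.4 CPM, highest in MCS at ZT14 (log2 ratio 0.27, 95% interval 0.10 to 0.44). *Kcnk5*, an acid-sensitive leak channel (chr14:20140057-20181809, minus strand), was at 12.2, 17.2, 13.1 and 9.20 CPM. It was highest in control and lowest in MCS at ZT14, where the 2 differed by -0.90 on the log2 scale (95% interval -1.30 to -0.52).

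The calcium-activated *Kcnn3* was at 52.1, 42.7, 41.2 and 51.3 CPM, high in control at ZT2 and in MCS at ZT14. Its log2 ratio of MCS to control was -0.34 at ZT2 (95% interval -0.54 to -0.14) and 0.26 at ZT14 (95% interval 0.07 to 0.46). *Kcnn4*, the calcium-activated channel of blood cells, was at 16.6, 17.1, 14.5 and 21.4 CPM, highest in MCS at ZT14 (log2 ratio 0.32, 95% interval 0.01 to 0.63). The beta subunit *Kcnab2* was at 206, 220, 194 and 221 CPM, and its MCS intervals were the narrow -0.18 to 0.01 at ZT2 and -0.08 to 0.10 at ZT14. *Kcnip4*, a calcium-binding subunit, was near 5 CPM with wide intervals.

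Several low potassium channel genes passed a 2-fold difference on few reads. *Kcnj5* had 6, 35, 24 and 9 reads, highest in control at ZT14 and in MCS at ZT2. Its log2 ratio of MCS to control was 1.86 at ZT2 (95% interval 0.68 to 3.59) and -1.95 at ZT14 (95% interval -3.30 to -0.98). *Kcnj13* had 26, 9, 21 and 34 reads and a log2 ratio at ZT14 of 1.72 (95% interval 0.72 to 3.06), and it lies within *Gigyf2* on the opposite strand, which was at 71.7, 87.8, 83.6 and 76.0 CPM. *Kcnc1* had 11, 9, 25 and 4 reads and *Kcnab3* 43, 35, 22 and 52 reads, and both had their extremes in the MCS libraries. For *Kcng1*, with 16, 6, 7 and 12 reads, the counting interval at ZT2 included no change although the ratio passed 2-fold.

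The 3 genes set apart as encoding no channel subunit were all well measured. *Kcnq1ot1*, an imprinted RNA that stays in the nucleus and silences neighbouring genes, was at 1136, 1112, 1144 and 878 CPM, low in MCS at ZT14 only (log2 ratio -0.34, 95% interval -0.38 to -0.30). The nuclear RNAs *Malat1*, at 17122, 16743, 17695 and 12928 CPM, and *Xist*, at 2537, 2594, 2582 and 2214 CPM, were also lowest in that library, while *Neat1* was at 969, 895, 958 and 1019 CPM. *Kcnq1*, which overlaps *Kcnq1ot1* on the opposite strand, was at 10.7, 9.78, 12.9 and 9.51 CPM. *Kcnrg* was at 18.7, 10.1, 16.2 and 9.20 CPM, higher at ZT2 in both groups, and *Trpc4ap* was at 121, 122, 132 and 130 CPM.

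The comparison of ZT2 with ZT14 asked how the channel genes differed between these times, the first in the light and the second in the dark phase. In both groups the ZT2 libraries were taken right after isoflurane and handling and the ZT14 libraries 12 h later. Time of day and time since handling therefore cannot be told apart. In control libraries 16 of the 45 well measured genes were lower at ZT2 (35.6%) and 3 were higher (6.67%), where 18.5% and 14.4% of all well measured genes were. The median log2 ratio of ZT2 to ZT14 was -0.15 over the 45 and -0.02 over all well measured genes. The lower genes were spread over families and mostly differed little, such as *Piezo1* (-0.21), *Trpm7* (-0.23), *Orai2* (-0.24), *Cacna1a* (-0.32), *Hvcn1* (-0.39) and *Kcnj2* (-0.48). The 3 higher genes were *Kcnrg* (0.88), *Kcnn3* (0.29) and *Kcnk13* (0.23). More than 2-fold differences were met by 3 of 65 channel genes higher at ZT2 (2.42% of all genes), *Kcnj13*, *Cacna1b* and *Kcng1*, and by 2 lower (1.19%), *Cacna1i* and *Kcnj5*. With the widened intervals *Cacna1i* and *Kcnrg* remained among the 45, beside 5.12% of all well measured genes.

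In MCS libraries 16 of the 45 genes were higher at ZT2 (35.6%) and 12 were lower (26.7%), where 22.9% and 25.9% of all well measured genes were. The higher genes included *Cacna1e* at a log2 ratio of 1.001 (95% interval 0.91 to 1.09), *Scn4a* at 0.97, *Trpv4* at 0.87, *Kcnrg* at 0.81, *Kcna3* at 0.79 and *Cacna1d* at 0.74. The lower genes included *P2rx1* at -0.80, *Trpm2* at -0.60, *Kcnn4* at -0.56 and *Kcnk6* at -0.43. More than 2-fold differences were met by 5 of 65 genes higher at ZT2 (3.96% of all genes), *Cacna1e*, *Scn2b*, *Kcnj5*, *Kcnc1* and *Piezo2*, and by 1 lower (1.87%), *Kcnab3*. With the widened intervals 9 of the 45 remained, beside 10% of all well measured genes, including *Cacna1d*, *Cacna1e*, *Kcna3*, *Kcnrg*, *P2rx1*, *Scn4a*, *Trpm2* and *Trpv4*. The 4 comparisons share libraries, so the ratios of a gene in them are not independent of each other.

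In edgeR's quasi-likelihood test of time, 1 of the 61 channel genes tested had an adjusted p below 0.05, beside 295 of 12404 genes (2.38%). This was *Kcnrg*, higher at ZT2 by 0.86 on the log2 scale (adjusted p = 0.0275), a direction seen in both pairs of libraries. It overlaps the noncoding *Dleu2* on the opposite strand, and its neighbour *Trim13*, 1511 bases away on the same strand, was at 14.7, 7.91, 10.3 and 6.95 CPM. The reads of *Kcnrg* and *Dleu2* together gave a log2 ratio of ZT2 to ZT14 of 0.37 in control (95% interval 0.14 to 0.60) and 0.72 in MCS (95% interval 0.50 to 0.95). DESeq2 called no channel gene for time, beside 81 of 12404 genes (0.653%). At an unadjusted p below 0.05 DESeq2 listed 1, *Kcnrg*, beside 430 of 12404 genes.

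Gene length moved with the ratios at ZT14. The well measured channel genes were long, with a median genomic span of 47.5 kb against 24.7 kb for 10129 well measured genes with an annotation. When these genes were cut into 10 groups of like size by span, 12 of the 45 were in the longest group. Over all well measured genes the median log2 ratio for MCS at ZT14 went from 0.13 in the group of shortest genes to -0.13 in that of the longest, and across these 10129 genes, which share their libraries, Spearman's rho of ratio and span was -0.24. Across the 45 channel genes rho was -0.14. In the longest group 5% of genes lay below -0.61, and *Cacna1e* was below that level at -0.997, whereas *Cacna1a* at -0.44 and *Cacna1d* at -0.35 were within it. The part of length in the ratios was not tested.

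**Figure D4:**
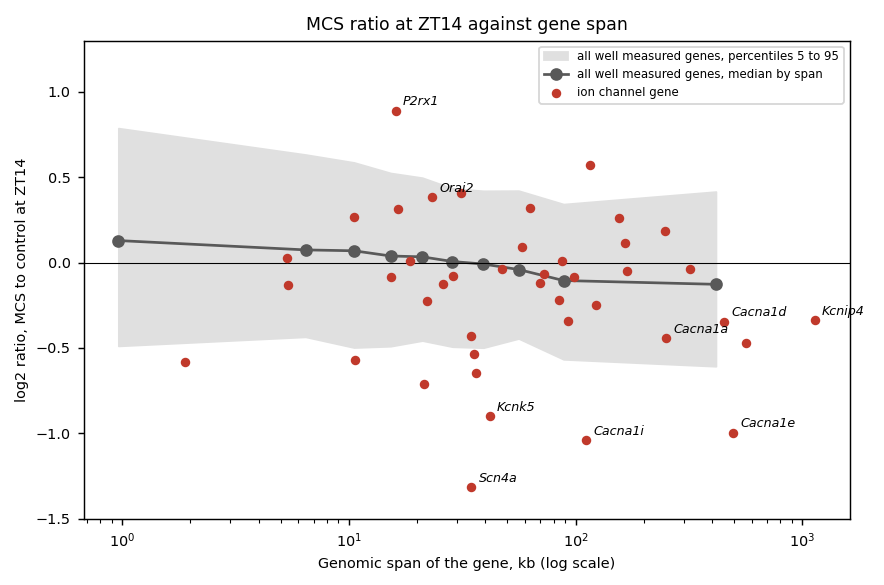
Log2 ratio of MCS to control at ZT14 against the genomic span of the gene in kb (log scale), for 42 of the 45 well measured ion channel genes (red points) and for all well measured genes in 10 groups by span (line, median; band, percentiles 5 to 95). The median falls from 0.13 to -0.13 with span, and the channel genes outside the band include *P2rx1* above it and *Scn4a*, *Cacna1i*, *Kcnk5* and *Cacna1e* below it.

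Genes that work with these channels, from lists that are not part of the 107, were read in the same way. Of 21 listed genes of intracellular calcium stores and extrusion, 22 of calmodulin, calcineurin and NFAT, 20 pumps and transporters that keep ion gradients, and 43 other channel genes, none passed 2-fold after MCS at ZT2 except the gap junction gene *Gja1*, which was higher, where 1.44% of all genes passed in that direction and 0.769% in the other. At ZT14 only *Atp1b1*, a beta subunit of the sodium pump, did, at 4.72 CPM in control and 1.64 in MCS (log2 ratio -1.47), where 1.57% of all genes passed in that direction and 1.84% in the other. Among the 18 well measured genes of calcium stores and extrusion at ZT14, 5 were higher and 4 lower by the counting interval, and the corresponding counts were 3 and 8 of 19 for calmodulin, calcineurin and NFAT, 4 and 6 of 18 for pumps, and 5 and 4 of 24 for other channels. Over all well measured genes the shares were 20.9% higher and 21.3% lower. Their median log2 ratios were 0.00, -0.15, -0.05 and -0.05, in that order. Between times, *Camk2b* passed 2-fold in control, and in MCS *Ryr3*, *Atp2b4*, *Atp1b1*, *Clic5* and *Gja1* did so with more at ZT2 and *Camkk1* with more at ZT14.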

How the data were processed

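Peritoneal macrophages were measured by RNA-seq in 4 libraries, 1 for each combination of treatment (control, MCS) and time (ZT2, ZT14). Per the labels and the study's methods, the authors trimmed reads with Trimmomatic 0.38, counted them with RSEM 1.3.0 and Bowtie 2 on mm10, and deposited CPM normalized by edgeR; libraries were directional, and the annotation version and the strand setting of the counting are not given in the sources used here. Every deposited value (100%) was a whole number of reads within 0.05 read when divided by the worth of 1 read, and these recovered counts, which include any rounding of RSEM estimates by the authors, gave the counting intervals.

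Log2 ratios were computed on CPM + 0.1, with exact conditional binomial (Clopper-Pearson) 95% intervals; intervals and the floor of 3 reads cover counting error only. A gene passed 2-fold when its log2 ratio exceeded 1 in size and the log2 mean of the libraries compared exceeded 0. Normal intervals were also widened by a common dispersion of 0.0196. The 12404 genes that had 40 reads or more over all libraries were tested as counts with edgeR's quasi-likelihood test (additive terms for time and MCS, Benjamini-Hochberg adjustment), which called 24 genes for MCS and 295 for time, with DESeq2 as an alternative. Scripts were tested on simulated data. With 1 library per condition, p-values rest on the spread left by the additive model.

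Genes are named by a rule: a mean of at least 5 CPM, a 2-fold difference in any comparison, or a position within 10 kb of such a gene; exceptions are stated. A few members enter the counts but are not reported here by name or drawn in figures. Members, roles and lists were chosen with earlier results of these data known. Of the marker lists, those for T cells, NK cells, fibroblasts, mesothelial cells, muscle and neurons summed to between 2.20 and 23.8 CPM in any library; *Mpo*, *Elane*, *Hbb-bt*, *Hba-a2*, *Pdgfra* and *Myh11* were at 0 in at least 1 library. Spans and lengths are from GENCODE vM21 and promoters from RefSeq (GRCm38.p6), in the same build as mm10; all 107 genes matched. Alternatives were other pseudocounts, minimum levels, thresholds, interval levels, rescaling and length measures. Software was Python 3.11.15 (numpy 2.4.6, pandas 2.3.3, scipy 1.17.1, matplotlib 3.10.9) and R 4.3.3 (edgeR 4.0.16, DESeq2 1.42.0).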

Additional observations from a re-analysis of the deposited data

Results flagged for a closer look

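Some well measured channel genes had ratios of opposite sign in the 2 parts of the same contrast, with both counting intervals away from no change. With 1 library per condition none of these differences was tested. These genes were picked by their values, and the share of all well measured genes meeting this rule was not taken. With intervals widened by the dispersion, none of the 45 channel genes lay away from no change for MCS at ZT2. For MCS against control, the log2 ratio at ZT2 minus that at ZT14 was 1.14 for *Cacna1e* (0.15 and -0.997), 1.18 for *Kcna3* (0.60 and -0.58) and 0.42 for *Trpm7* (0.20 and -0.22). In the other direction it was -0.60 for *Kcnn3* (-0.34 and 0.26).

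For ZT2 against ZT14, the log2 ratio in control minus that in MCS was -1.14 for *Cacna1e* (-0.14 and 1.001), -0.997 for *Kcnk5* (-0.49 and 0.51), -0.51 for *Cacna1a* (-0.32 and 0.19) and -0.42 for *Trpm7* (-0.23 and 0.19). It was 0.60 for *Kcnn3* (0.29 and -0.32) and 0.44 for *Kcnk13* (0.23 and -0.21). The same 4 libraries give both kinds of difference, so for *Cacna1e*, *Trpm7* and *Kcnn3* they are a single observation.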

How the results depend on the processing

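Counts of channel genes past 2-fold depended on the minimum level. The share of all genes past 2-fold was not taken under the alternatives below, so these counts cannot set channel genes against other genes. For MCS at ZT2 the 5 genes became 1 with a pseudocount of 1, 0 with a log2 mean above 3, 23 with no minimum and 11 at a log2 ratio of 0.58. For MCS at ZT14 the 5 became 2, 20 and 13 under the last 3 of these. For time in control the 5 became 3, 1, 29 and 10, and for time in MCS the 6 became 2, 1, 25 and 20. Intervals widened by the dispersion left 0 of 10 genes for MCS at ZT2, 5 of 27 at ZT14, 2 of 19 for time in control and 9 of 28 for time in MCS. The count test of time called 3 genes in place of 1 with a minimum of 10 reads, *Cacna1i*, *Kcnrg* and *Trpc2*, beside 2.79% of 14133 genes, and 0 with DESeq2. The other 45 values of counts, medians and orders under alternatives stayed closer to those given, and no gene ratio changed sign among those called. Some of these 45 still fell. Intervals at 99% left 7 of 10 genes for MCS at ZT2, 19 of 27 at ZT14, 16 of 19 for time in control and 19 of 28 for time in MCS. The share over all genes was not taken at 99% either. Of the 10 highest genes per kilobase, 7 were also among the 10 highest with the median transcript length. No paired analysis was possible because each condition has 1 library and the labels give no replicate numbers. Depth limits the 44 genes under 1 CPM, of which up to 3 reads can be missed in a library.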

Other observations

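Low channel genes with unlike reads between libraries were chosen after their values were seen. *Cacnb3*, a beta subunit of calcium channels, had 1 and 3 reads in control and 15 and 14 reads in MCS, at ZT2 and ZT14. Its log2 ratio of MCS to control was 3.09 at ZT2 (95% counting interval 1.21 to 9.31) and 1.83 at ZT14 (0.28 to 4.56), and edgeR's quasi-likelihood test with a minimum of 10 reads gave it an adjusted p of 0.185 for MCS. *Trpc2*, a TRP channel of the vomeronasal organ, had no read in 3 libraries and 16 reads in MCS at ZT14, at least 4.96-fold higher than control at ZT14 when that library is set at its floor of 3 reads. With a minimum of 10 reads, edgeR's quasi-likelihood test of time called it at an adjusted p of 0.0456. The control libraries had no read at either time, so this call rests on the MCS library at ZT14. *Trpc2* overlaps *Xntrpc* and *Xndc1*, and the 3 genes together were at 14.2, 11.3, 11.6 and 14.1 CPM, a log2 ratio at ZT14 of 0.32 (95% interval -0.06 to 0.70).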
